A study of Mus musculus with 9 samples.

Results

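Cholesterol and fatty acid synthesis genes are described here in neural stem and progenitor cells (NSCs) sampled at 3 time points. Members were taken by exact gene symbol from a list of 35 genes of the sterol regulatory element-binding protein (SREBP) pathway. Of the 35, 33 were found among the 38197 symbols measured: 5 regulators, 17 of 19 enzymes of the sterol branch and 11 of 11 genes of the fatty acid branch. Mvd and Msmo1 had no value under these symbols. Sc4mol, an older symbol of Msmo1, was measured and is given outside the count. All 33 genes found passed the filter on low counts, so every count of tested members below is out of 33.

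RNA was sequenced from wild-type mouse embryonic stem cell-derived NSCs of the ventral hindbrain, in a culture used to study how the same progenitors change over time. The cells were of strain 129, and all were treated with retinoic acid and the Smoothened agonist SAG from 0 to 3 days in differentiation conditions (DDC). Cells were sorted for the surface protein prominin-1 at 4.5DDC, 5.5DDC and 6.5DDC, with 3 libraries per time point and no other genotype or treatment in these libraries. A further field of the labels gives the ages as 4, 5 and 6 days. The libraries held 17820600, 11244489 and 14390493 counts at 4.5DDC for replicates 1, 2 and 3. At 5.5DDC the totals were 25506192, 11573528 and 11066572, and at 6.5DDC they were 12851795, 16479971 and 15913820. Nothing in the labels says whether replicates came from separate cultures, so the p-values measure only the spread between these libraries.

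In cells, sterol synthesis starts from acetyl-CoA, passes through mevalonate, isoprenoid units and squalene, and closes the sterol rings before finishing cholesterol. Fatty acid synthesis starts from the same acetyl-CoA, extends it to palmitate and then elongates and desaturates the chain. When sterol in the endoplasmic reticulum runs low, SCAP carries SREBPs to the Golgi for cleavage, and the freed factors raise transcription of both branches, while INSIG1 holds the complex back. In the developing brain the barrier to blood lipoproteins makes neural cells depend on their own cholesterol synthesis.

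The label was checked against markers fixed by cell type, in FPKM (reads scaled by the authors for transcript length and sequencing depth). All 11 markers of neural progenitors passed the filter on low counts, but their levels differed widely. Vim ranged from 1230 to 2450 FPKM, Nes from 138 to 172 and Sox2 from 78.2 to 96.0, while Sox3 ranged from 1.44 to 14.4, Hes5 from 0.684 to 12.9 and Pax6 from 0.719 to 7.21. Prom1, the gene for the sorting antigen, rose from 79.1 ± 14.3 FPKM at 4.5DDC to 183 ± 27.2 at 6.5DDC (mean ± SD, n = 3 throughout). Of the pluripotency genes, Pou5f1, Nanog, Zfp42, Esrrb, Tdgf1 and Utf1 stayed below 1 FPKM in all 9 libraries. Neuronal RNA was present as well, with Stmn2 between 17.1 and 199 FPKM. In bulk RNA, fewer cells of a type and less RNA per cell cannot be told apart.

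One library, 5.5DDC replicate 1, stood apart for the lipid genes and had to be weighed in all that follows. It had the lowest value of the 9 libraries for 23 of the 33 genes, against 14.2% of all 14742 genes tested. By branch this was 12 of 17 sterol genes, 9 of 11 fatty acid genes and 2 of 5 regulators. Against the mean of its 2 companions at 5.5DDC, its median log2 difference was -1.51 over the sterol genes and -1.02 over the fatty acid genes, against -0.381 over the regulators and 0.00739 over all genes. It was lower by at least 1 on the log2 scale for 20 of 33 members (60.6%) against 7.33% of all genes. The widest gaps were at Scd1 (-2.35), Fdps (-1.96), Lss (-1.77), Idi1 (-1.71) and Scd2 (-1.67), while Srebf1 (-0.318), Srebf2 (-0.381) and Ggps1 (-0.172) stayed close and Scap was above its companions (0.292). The other regulators, Insig1 (-1.41) and Stard4 (-0.977), were low in it as well. Neuron markers were also low in it, with a median difference of -1.96 and 7 of 10 lower by at least 1, as were markers of mesenchyme and neural crest, at -1.76 with 5 of 8. Of 7 glia markers 3 were lower by at least 1, with a median of -0.21. Endoderm markers were higher in the median, at 0.66, with 3 of 6 higher by at least 1 and 1 lower by at least 1. Proliferation markers differed by -0.23 and progenitor markers by -0.09. Results on the members are therefore given with and without this library. It was singled out by the members' own low values, so counts of members called without it are no separate support for their change.

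From 4.5DDC to 6.5DDC most lipid synthesis genes had lower estimates, and 4 passed the test. The mevalonate kinase gene Mvk, the sterol reductase gene Tm7sf2, the fatty acid synthase gene Fasn and the stearoyl-CoA desaturase gene Scd1 fell. Their 6.5DDC means were 35.2%, 53.7%, 28.7% and 33.2% of the 4.5DDC means in FPKM. Of the 33 genes, 31 had a lower estimate at 6.5DDC, against 49.8% of all genes tested, and the exceptions were Ggps1 and Acss2. The median log2 fold change was -0.55 over the sterol branch, -0.60 over the fatty acid branch and -0.52 over the regulators, against 0.00 over all genes. Taken by replicate number, the medians were -0.18, -0.55 and -0.97 for sterol genes (12, 16 and 16 of 17 lower), -0.23, -0.65 and -0.74 for fatty acid genes (8, 10 and 11 of 11 lower) and -0.33, -0.90 and -0.05 for regulators (3, 5 and 3 of 5 lower). Replicate 1 thus had the smallest differences in both branches. For this pair of time points the replicate number set replicate 1 apart but did not pair replicates 2 and 3. Deviations from the time point means correlated across genes by 0.383, -0.0396 and -0.215 for equal numbers. Replicate 1 with another number gave -0.371 to -0.123. Replicate 2 of 4.5DDC with replicate 3 of 6.5DDC gave 0.46, and replicate 3 with replicate 2 gave 0.487. Differences by replicate number between 4.5DDC and 6.5DDC, here and below, therefore only describe the values and are no paired test.

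Each gene was tested by the quasi-likelihood test of edgeR, with Benjamini-Hochberg adjustment over all 14742 genes, and a gene was called at an adjusted p under 0.05. It called 4 of 33 members (12.1%) lower and 0 higher, where 9.53% of all genes were called lower, 9.21% higher and 18.7% either way. The share of members called was thus near that of all genes. Of 17 sterol genes 2 were called, of 11 fatty acid genes 2, and of 5 regulators 0. At an unadjusted p under 0.05 the counts were 5, 6 and 2, or 13 of 33 members, where 5218 of all 14742 genes were. DESeq2 called 8 members lower (Srebf1, Srebf2, Mvk, Idi1, Lss, Tm7sf2, Fasn and Scd1) and 0 higher, where it called 10.9% of all genes lower.

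Leaving out 5.5DDC replicate 1, which belongs to neither time point but widens the spread that all 3 share, left the medians at -0.55 and -0.61 and raised the count to 16 of 33 (48.5%), all lower. The background then was 10.2% of 14894 genes called lower. Since the library was singled out by the low values of these same members, the rise over the background cannot be read as separate support. The 9 sterol genes were Acat2, Mvk, Idi1, Fdps, Lss, Cyp51, Tm7sf2, Sc5d and Dhcr7, and the 7 fatty acid genes were Acly, Acaca, Fasn, Elovl5, Elovl6, Scd1 and Scd2. No regulator was called in that fit by edgeR, in which 3 of 5 regulators, 26 of 33 members and 5494 of 14894 genes had an unadjusted p under 0.05. With replicates 2 and 3 alone, an alternative chosen after seeing the data, 24 members were called lower, against 14.8% of all genes. These were 14 of 17 sterol genes, 9 of 11 fatty acid genes and 1 of 5 regulators, with medians of -0.78 and -0.85 for the branches. Leaving out 6.5DDC replicate 2 brought the count to 1, Fasn. Without 4.5DDC replicate 1, 4.5DDC replicate 2, 5.5DDC replicate 2 or 5.5DDC replicate 3 it was 2 in each case. The share of all genes called without these libraries is not given, so whether the lower counts are particular to the members cannot be told.

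The libraries were also compared in FPKM, with no model. In 18 of 33 members all 3 libraries of 6.5DDC lay below all 3 of 4.5DDC, 11 in the sterol and 7 in the fatty acid branch, against 16.7% of all genes. In 1 member, Ggps1, they all lay above, against 17.9% of all genes. For these 19 genes the two-sided exact permutation p was 0.1, the smallest that 3 against 3 libraries allow.

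**Figure D1:**
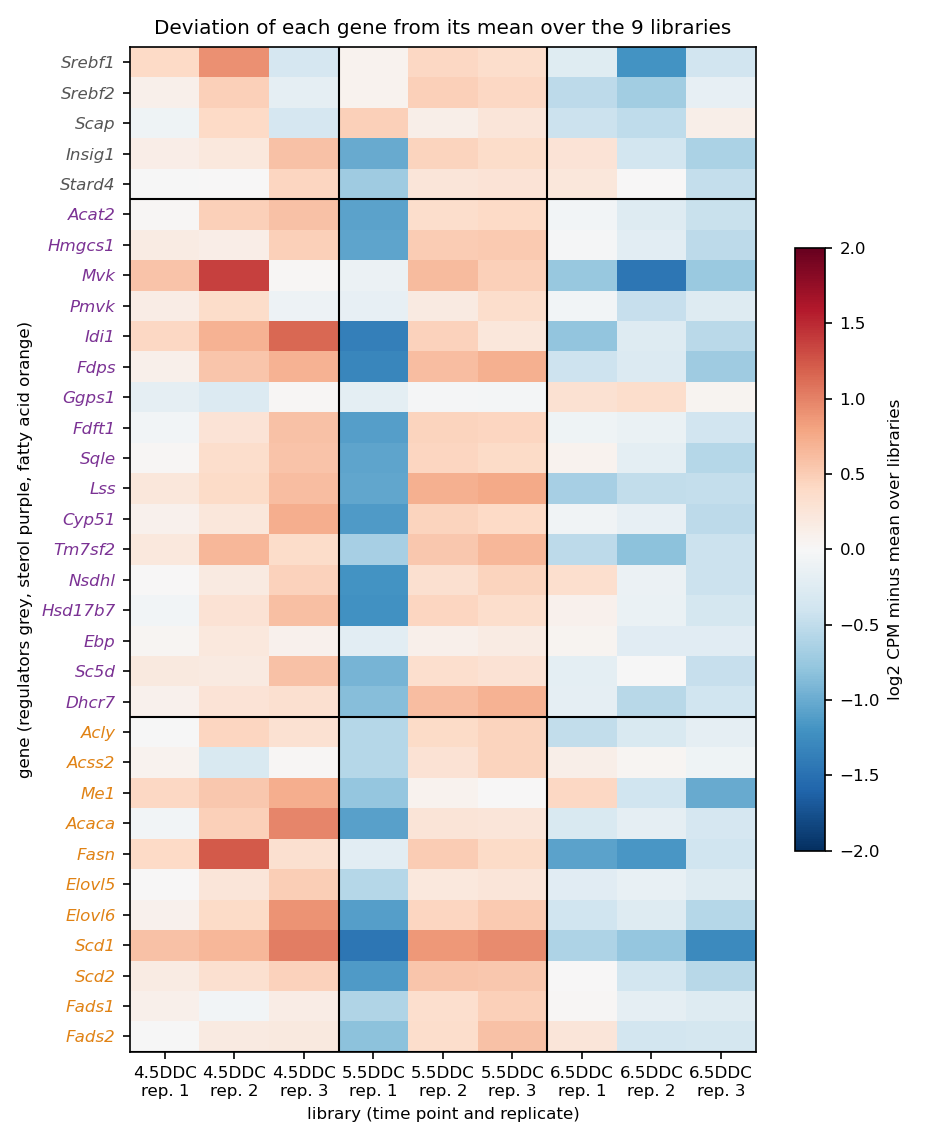
Log2 CPM (counts scaled to library size) of the 33 members in the 9 libraries, each as its difference from the gene's mean over the libraries (colour), with genes ordered as regulators, sterol branch and fatty acid branch. The column of 5.5DDC replicate 1 is low for 23 members, most of them enzymes, and the 6.5DDC columns are lower than the other columns of 4.5DDC and 5.5DDC for most enzymes of both branches.

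The regulators comprised both SREBP genes, the escort gene Scap, the retention gene Insig1 and the sterol carrier gene Stard4. Srebf1, which encodes the SREBPs tied mainly to fatty acid genes, was at 107, 133 and 68.3 FPKM at 4.5DDC, at 71.3, 112 and 110 at 5.5DDC and at 74.4, 42.3 and 61.3 at 6.5DDC (replicates 1, 2 and 3 in order, here and below). Srebf2, whose product acts mainly on sterol genes, was at 54.7, 71.6 and 42.4, then 54.0, 72.1 and 68.6, then 34.0, 30.8 and 46.5 FPKM. Both genes were lowest at 6.5DDC in the mean, at 59.4 ± 16.2 and 37.1 ± 8.28 FPKM, but 6.5DDC and 4.5DDC libraries overlapped because 4.5DDC replicate 3 was low. Srebf1 had a log2 fold change of -0.96 (SE 0.32) and an adjusted p of 0.0628, and Srebf2 had -0.60 (SE 0.21) and 0.0669, so neither passed the test. Taken by replicate number, the log2 differences were -0.63, -2.10 and -0.05 for Srebf1 and -0.62, -1.18 and 0.01 for Srebf2. Both were called by DESeq2 and by edgeR without 4.5DDC replicate 3. Without 4.5DDC replicate 2 the log2 fold changes were -0.63 and -0.42, with adjusted p-values of 0.225 and 0.22 in edgeR.

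Scap was at 30.1, 43.6 and 16.2 FPKM at 4.5DDC, at 44.4, 29.9 and 31.5 at 5.5DDC and at 23.1, 17.7 and 23.2 at 6.5DDC. The 4.5DDC libraries of Scap spanned all those of 6.5DDC. Insig1, itself a known SREBP target, was at 68.3, 72.6 and 85.8, then 29.2, 83.7 and 79.7, then 69.8, 49.8 and 40.2 FPKM. Its low value at 5.5DDC was that of replicate 1, and at 6.5DDC replicates 2 and 3 lay below every 4.5DDC library while replicate 1 did not. Stard4, which moves cholesterol between membranes, was at 25.4, 26.1 and 33.3, then 16.7, 32.0 and 32.7, then 31.9, 25.5 and 19.4 FPKM. Its time points overlapped throughout. From 4.5DDC to 6.5DDC the log2 fold changes were -0.26 for Scap, -0.52 for Insig1 and -0.21 for Stard4, with adjusted p-values of 0.444, 0.331 and 0.614 in edgeR.

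In the sterol branch, the first steps make and use mevalonate. Hmgcs1, the cytosolic synthase that makes HMG-CoA, was at 549, 546 and 653 FPKM at 4.5DDC, at 241, 718 and 716 at 5.5DDC and at 470, 425 and 355 at 6.5DDC. All 6.5DDC libraries lay below all of 4.5DDC, and 5.5DDC replicate 1 lay below every other library. Its means were 582 ± 61.1, 558 ± 275 and 416 ± 58.0 FPKM, and the 5.5DDC mean without replicate 1 was 717. Its log2 fold change between 4.5DDC and 6.5DDC was -0.50, with an adjusted p of 0.329. Acat2, which joins acetyl-CoA units at the entry to the pathway, went from 121 ± 18.7 to 77.9 ± 7.38 FPKM between the same time points (adjusted p 0.204, and 39.1% of its 50-base windows were shared with other genes, mostly Acat3).

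Mvk, which phosphorylates mevalonate, fell most in the fit of all 33 genes. It was at 36.4, 61.2 and 25.1 FPKM at 4.5DDC, at 20.1, 41.9 and 35.3 at 5.5DDC and at 17.5, 9.89 and 15.8 at 6.5DDC. Every 6.5DDC library lay below every library of both earlier time points, and the 4.5DDC libraries were the most spread. The means were 40.9 ± 18.5, 32.4 ± 11.2 and 14.4 ± 4.01 FPKM. Between 4.5DDC and 6.5DDC Mvk fell by 1.71 on the log2 scale (SE 0.35, adjusted p 0.0115 in edgeR), and the difference was negative in all 3 replicate numbers (-1.32, -2.80 and -0.77). It was called in 18 of 19 alternatives, and the exception was without 6.5DDC replicate 2, where the adjusted p was 0.0515. Pmvk, the next kinase, went from 43.3 ± 8.7 to 35.5 ± 5.78 FPKM and did not pass the test (adjusted p 0.155).

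Promoters are shown for 3 members that stood out: Mvk and Fasn, the called genes of each branch that passed in the most alternatives, and Hmgcs1, the most abundant sterol gene. The sequences are from RefSeq on GRCm38.p6, 5′ to 3′ on the gene's strand, and cover the 250 bases before the annotated start. Capitals mark the CCAAT box on either strand (ATTGG is its complement) and, in Hmgcs1, the sterol regulatory element letters TCACNCCAC. The Mvk window is chr5:114444019-114444268 on the plus strand and holds 5 CCAAT boxes. The Fasn window is chr11:120824548-120824797 on the minus strand with 3 boxes, 2 of which overlap. The Hmgcs1 window is chr13:119690101-119690350 on the plus strand, with 3 boxes and a sterol regulatory element match starting at position -137 from the start.
Mvk: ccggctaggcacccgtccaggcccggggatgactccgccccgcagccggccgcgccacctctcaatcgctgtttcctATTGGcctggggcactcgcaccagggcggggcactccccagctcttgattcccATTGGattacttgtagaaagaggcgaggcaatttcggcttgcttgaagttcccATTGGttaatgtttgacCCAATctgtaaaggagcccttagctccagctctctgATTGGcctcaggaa
Fasn: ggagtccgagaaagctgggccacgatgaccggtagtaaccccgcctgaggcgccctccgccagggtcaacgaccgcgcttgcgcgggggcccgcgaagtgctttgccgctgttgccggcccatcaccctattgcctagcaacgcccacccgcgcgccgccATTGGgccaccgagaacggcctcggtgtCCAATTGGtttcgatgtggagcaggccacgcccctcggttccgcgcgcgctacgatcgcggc
Hmgcs1: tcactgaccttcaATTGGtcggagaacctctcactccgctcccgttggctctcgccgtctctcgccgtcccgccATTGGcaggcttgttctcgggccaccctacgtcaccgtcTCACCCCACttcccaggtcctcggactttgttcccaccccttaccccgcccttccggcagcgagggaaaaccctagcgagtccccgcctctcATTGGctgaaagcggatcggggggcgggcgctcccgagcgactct

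RefSeq promoters of 300 bases (250 before to 50 after the start) were matched for 28 of the 35 symbols listed, Mvd and Msmo1 among them, which have no expression value here. The CCAAT letters were found in 23 of 28 (82.1%), against 41.1% of all 27025 genes with such promoters, a gene being counted when any of its promoters held the letters. By group this was 15 of 16 sterol genes, 5 of 8 fatty acid genes and 3 of 4 regulators. GGGCGG, the core bound by Sp1, was in 22 of 28 (78.6%) against 38.2%, and CACGTG, the E-box letters that SREBPs can also bind, was in 6 of 28 (21.4%) against 8.09%. The sterol regulatory element TCACNCCAC was in 1 of 28, Hmgcs1, against 1.44% of all genes, and its longer 10-letter form was in 0 of 28 against 0.0999%. All motifs were searched on both strands, and the element's forms overlap. A match describes letters in this window and not binding. Fads1, Fdft1, Fdps, Scd1, Scd2, Sqle and Stard4 were not matched.

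The isoprenoid steps follow. Idi1, which isomerises isopentenyl diphosphate, was at 90.5, 119 and 134 FPKM at 4.5DDC, at 33.4, 103 and 96.4 at 5.5DDC and at 58.7, 57.6 and 45.7 at 6.5DDC. All 6.5DDC libraries lay below all of 4.5DDC, and the lowest of the 9 was 5.5DDC replicate 1. The log2 fold change was -1.32 (SE 0.44), with an adjusted p of 0.061 in edgeR and 0.0109 without 5.5DDC replicate 1. Its counts were only 45 to 200 per library, fewer than its FPKM and exon length imply, and 25.3% of its 50-base windows occur in other genes. The median length implied by count and FPKM was 2.58% of the exonic bases for Idi1. The next lowest were Acaca (15.4%), Srebf1 (18.2%), Fdps (19.8%), Dhcr7 (23.7%) and Tm7sf2 (24.2%), and the highest was Scd2 (122%). Counts and FPKM of a gene may thus cover different parts of it, which was not tested. Fdps, which makes farnesyl diphosphate, went from 104 ± 21.7 to 57.8 ± 6.52 FPKM, with a log2 fold change of -0.93 and an adjusted p of 0.147. Ggps1, which diverts farnesyl diphosphate toward protein prenylation and away from sterols, was the gene on the other side. It was at 16.2, 14.6 and 16.6 FPKM at 4.5DDC, at 15.4, 17.7 and 17.4 at 5.5DDC and at 22.0, 22.0 and 19.0 at 6.5DDC. Every 6.5DDC library was above all 6 earlier ones, and the 5.5DDC replicate 1 value lay with its companions. The log2 fold change of Ggps1 was 0.38 (SE 0.15), with an adjusted p of 0.101 in edgeR, so it did not pass. It is named because it was the sole member above in all libraries, a choice made after its values were seen.

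The squalene steps commit the pathway to sterols. Fdft1, squalene synthase, was at 47.4, 61.5 and 71.7 FPKM at 4.5DDC, at 23.9, 70.7 and 67.6 at 5.5DDC and at 47.8, 44.8 and 40 at 6.5DDC. Sqle, the epoxidase that sets the pace of the later pathway, was at 85.7, 109 and 118, then 41.3, 116 and 112, then 85.4, 72.3 and 59.0 FPKM. For both, 5.5DDC replicate 1 was far below the rest, and 6.5DDC replicate 1 lay next to the lowest 4.5DDC library. Neither passed the test from 4.5DDC to 6.5DDC, with log2 fold changes of -0.48 and -0.54 and adjusted p-values of 0.347 and 0.29. Lss, which folds the squalene chain into lanosterol, was at 60, 59.0 and 66.8, then 27.6, 85.2 and 87.5, then 30.8, 24.6 and 37.6 FPKM. Its 6.5DDC libraries lay far below the 4.5DDC ones but 5.5DDC replicate 1 was as low as they were. The log2 fold change of Lss was -0.96 (SE 0.37), with an adjusted p of 0.0979 in edgeR and 0.00299 without that library.

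The steps from lanosterol to cholesterol remove methyl groups and move or reduce double bonds. Tm7sf2, a sterol C14 reductase, was at 37.8, 51.3 and 43.2 FPKM at 4.5DDC, at 24.9, 46.4 and 51.7 at 5.5DDC and at 25.6, 20.0 and 25.5 at 6.5DDC. No 6.5DDC library reached the 4.5DDC range, and 5.5DDC replicate 1 lay within the 6.5DDC range. Tm7sf2 fell by 1.01 on the log2 scale (SE 0.31, adjusted p 0.0482 in edgeR), lower in 3 of 3 replicate numbers (-0.74, -1.48 and -0.79). The call was lost in 12 of 19 alternatives, at most with an adjusted p of 0.158 without 6.5DDC replicate 2, while without 5.5DDC replicate 1 it was 0.00629. Of its exonic bases, 12.1% overlap Vps51 on the same strand. Dhcr7, the reductase of the last step in 1 of the routes to cholesterol, was at 122, 130 and 148, then 53.9, 160 and 183, then 107, 93.2 and 93.4 FPKM. Its 6.5DDC libraries all lay below those of 4.5DDC, and the log2 fold change was -0.61, with an adjusted p of 0.214 in edgeR.

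The other late sterol genes were given by range. Cyp51, the lanosterol demethylase, went from 128 ± 16.0 to 82.8 ± 1.67 FPKM, and Sc5d, a sterol desaturase, from 30.5 ± 4.54 to 21.1 ± 3.17. Their libraries did not overlap between these time points. Nsdhl, Hsd17b7 and Ebp had overlapping libraries and log2 fold changes between -0.42 and -0.24. Adjusted p-values of these 5 genes lay between 0.218 and 0.645. Sc4mol, the oxidase gene outside the count, was at 159, 194 and 211 FPKM at 4.5DDC, at 66.9, 208 and 207 at 5.5DDC and at 131, 124 and 97.3 at 6.5DDC. It showed the same low value in 5.5DDC replicate 1, with a log2 fold change of -0.66 and an adjusted p of 0.249, or 0.0298 without that library.

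**Figure D2:**
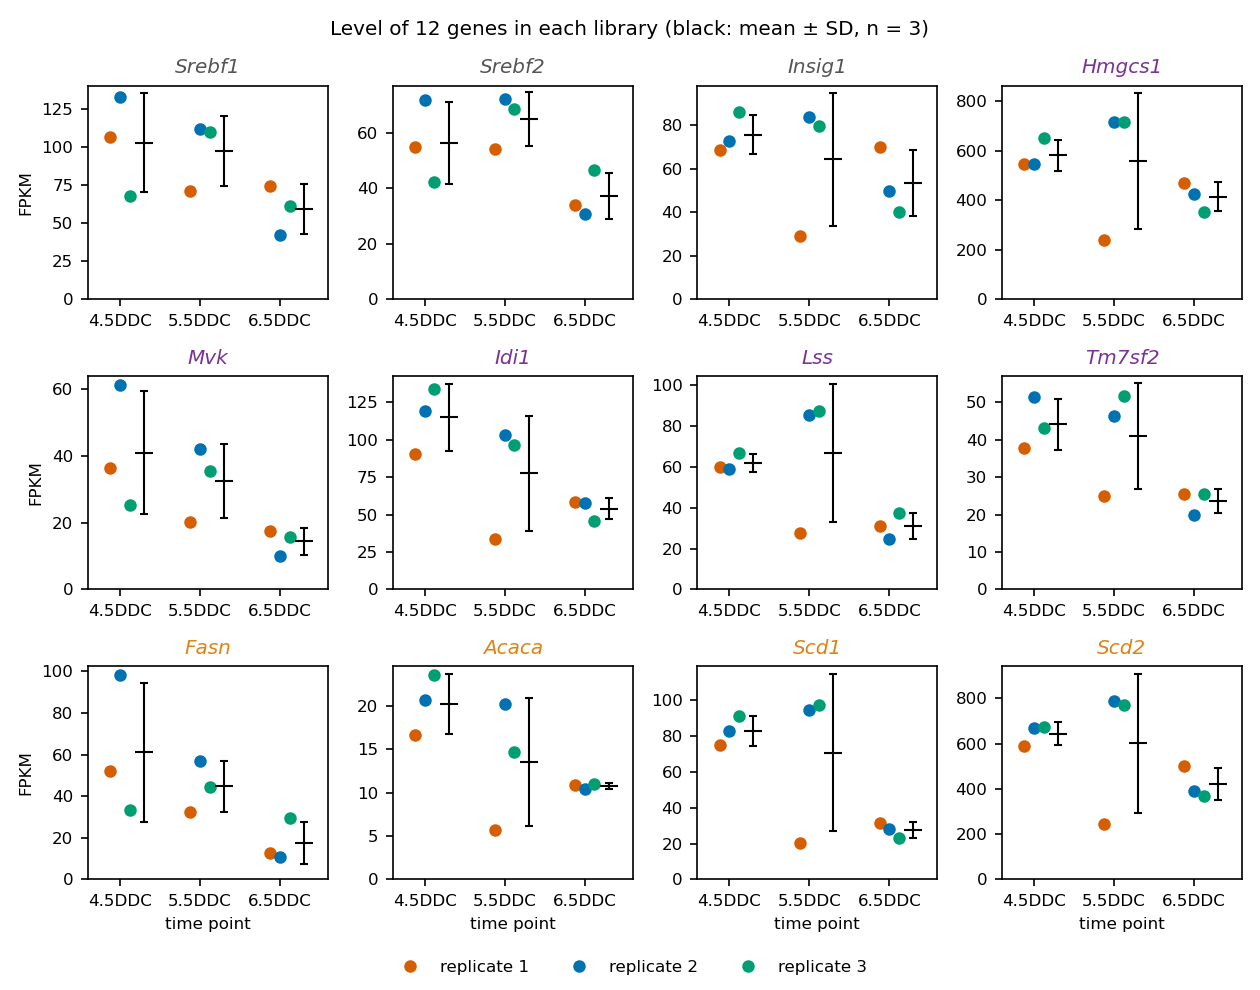
FPKM of 12 genes in each library by time point in DDC, with points for libraries and black bars for mean ± SD (n = 3). The 6.5DDC points of Mvk, Idi1, Lss, Tm7sf2, Fasn, Acaca and Scd1 lie below all 4.5DDC points, while those of Srebf1, Srebf2 and Insig1 overlap them.

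The fatty acid branch begins with the supply of cytosolic acetyl-CoA. Acly, which makes it from citrate, was at 166, 215 and 200 FPKM at 4.5DDC, at 111, 215 and 251 at 5.5DDC and at 139, 135 and 153 at 6.5DDC. Its 6.5DDC libraries lay below all of 4.5DDC, and the log2 fold change was -0.58 (SE 0.25), with an adjusted p of 0.129, or 0.03 without 5.5DDC replicate 1. Acss2, which makes acetyl-CoA from acetate, was level, at 12.8 ± 1.37, 13.9 ± 4.39 and 13.8 ± 1.18 FPKM, with a log2 fold change of 0.08 (adjusted p 0.845 in edgeR). Me1, a source of NADPH and the least abundant member at every time point, went from 12.1 ± 0.933 to 7.19 ± 3.47 FPKM (log2 fold change -0.79, adjusted p 0.14 in edgeR). Its 6.5DDC libraries were at 11.1, 6.15 and 4.37 FPKM, and without 6.5DDC replicate 1 the log2 fold change was -1.25, with an adjusted p of 0.0239.

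Acaca and Fasn carry out the committed steps. Acaca, which makes malonyl-CoA, was at 16.6, 20.6 and 23.5 FPKM at 4.5DDC, at 5.67, 20.2 and 14.7 at 5.5DDC and at 10.9, 10.4 and 11 at 6.5DDC. Its 6.5DDC libraries were close together, at 10.8 ± 0.337 FPKM, and below all of 4.5DDC. The log2 fold change was -0.80, with an adjusted p of 0.135 in edgeR, and 30.4% of its 50-base windows occur in other genes. Fasn, which builds palmitate, was at 51.9, 98 and 33.4, then 32.5, 57.1 and 44.4, then 12.5, 10.9 and 29.3 FPKM. Every 6.5DDC library lay below every earlier library, though 6.5DDC replicate 3 and 4.5DDC replicate 3 came near each other. Fasn fell by 1.55 on the log2 scale (SE 0.31, adjusted p 0.00947 in edgeR), lower in 3 of 3 replicate numbers (-1.47, -2.38 and -0.73). It was called in 19 of 19 alternatives, with the highest adjusted p, 0.0458, without 6.5DDC replicate 2. No other gene overlaps its exons in the annotation.

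The elongase genes Elovl5 and Elovl6 went from 71.0 ± 9.76 to 52.3 ± 1.35 FPKM and from 30.7 ± 7.98 to 16.6 ± 1.36, without overlap of libraries. Their log2 fold changes were -0.47 and -0.90, with adjusted p-values of 0.149 and 0.114 in edgeR.

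Of the 4 desaturases, Scd1 and Scd2 introduce the first double bond into saturated chains. Scd1 was at 74.6, 82.4 and 91.0 FPKM at 4.5DDC, at 20.4, 94.1 and 97.2 at 5.5DDC and at 31.5, 27.9 and 23 at 6.5DDC. Scd2, the most abundant member in the mean at each time point, was at 588, 671 and 675, then 247, 789 and 769, then 500, 392 and 367 FPKM. In both genes the 6.5DDC libraries lay below all of 4.5DDC, and 5.5DDC replicate 1 was the lowest of the 9. Scd1 fell by 1.63 on the log2 scale (SE 0.49, adjusted p 0.0454 in edgeR), lower in 3 of 3 replicate numbers (-1.20, -1.43 and -2.30). The call held in 8 of 19 alternatives, with an adjusted p of 0.121 without 6.5DDC replicate 2 and 0.00158 without 5.5DDC replicate 1. Scd2 had a log2 fold change of -0.60 and an adjusted p of 0.267. At 6.5DDC Scd2 (420 ± 70.6 FPKM) and Hmgcs1 (416 ± 58.0) did not differ beyond their spread.

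The share of Scd1 in the summed FPKM of Scd1 and Scd2 was 11.3%, 10.9% and 11.9% at 4.5DDC. It was 7.65%, 10.7% and 11.2% at 5.5DDC and 5.94%, 6.64% and 5.90% at 6.5DDC. The 6.5DDC shares, 6.16% ± 0.416, lay below all 6 earlier ones, and the low share at 5.5DDC was that of replicate 1. The two-sided exact permutation p was 0.1 for 4.5DDC against 6.5DDC, the smallest possible with 3 against 3. Few 50-base windows are shared by this pair, 2.97% of those of Scd1 and 2.66% of those of Scd2.

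Fads1 and Fads2 act on polyunsaturated chains and had the smallest changes of the 4 desaturases. Fads1 was at 116, 104 and 114 FPKM at 4.5DDC, at 72.1, 141 and 152 at 5.5DDC and at 107, 94.5 and 92.9 at 6.5DDC. Fads2 was at 156, 180 and 169, then 90.0, 204 and 237, then 181, 120 and 127 FPKM. Both overlapped between 4.5DDC and 6.5DDC, and both were lowest in 5.5DDC replicate 1. Their log2 fold changes were -0.20 and -0.25, with adjusted p-values of 0.597 and 0.609 in edgeR.

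**Figure D3:**
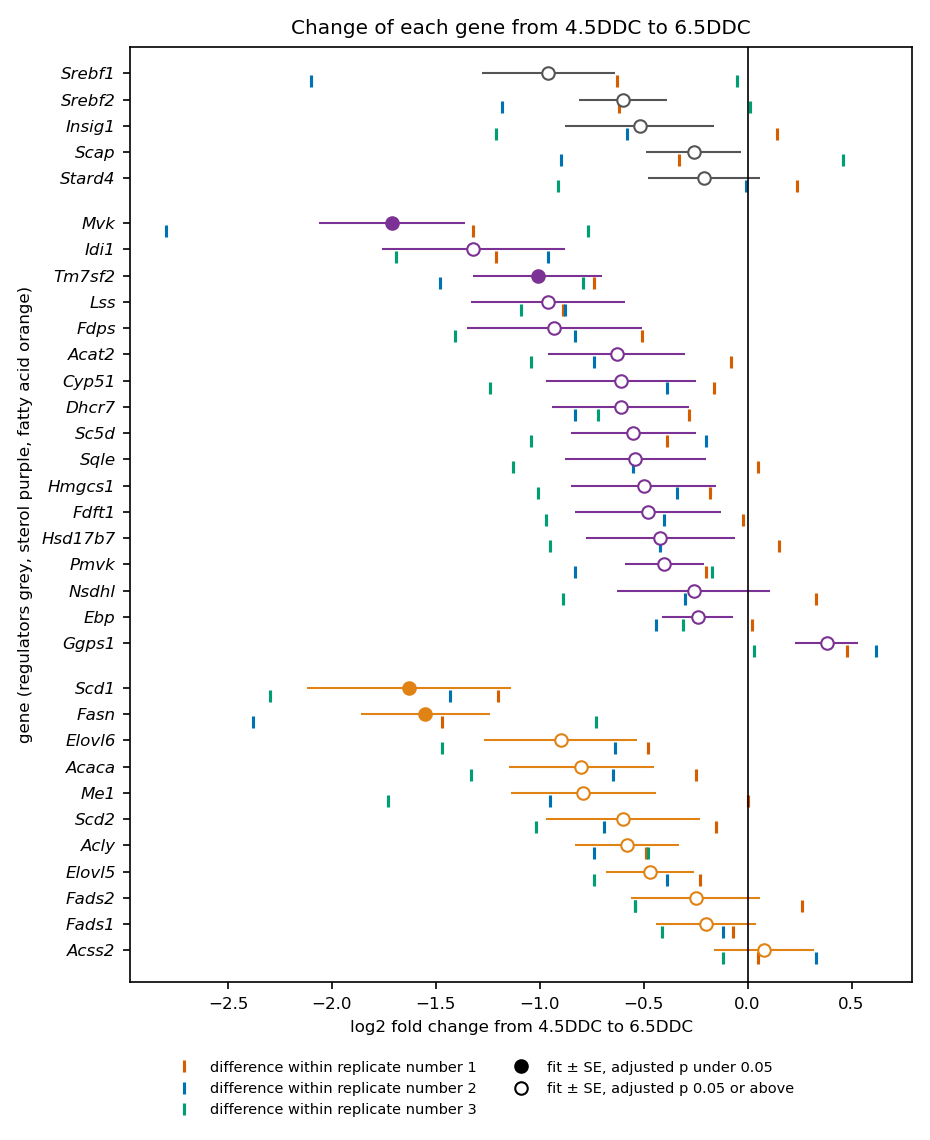
Log2 fold change from 4.5DDC to 6.5DDC of the 33 members (points, with bars for the SE), filled where the adjusted p was under 0.05, with ticks for the difference within each replicate number. Mvk, Scd1, Fasn and Tm7sf2 are filled, and Ggps1 and Acss2 alone lie above 0.

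Set side by side, the branches had similar values, and their difference was not tested. The median deviation of the sterol genes from their means was 0.09, 0.29 and 0.57 on the log2 scale at 4.5DDC, -1.05, 0.45 and 0.40 at 5.5DDC and -0.07, -0.23 and -0.45 at 6.5DDC. For the fatty acid genes it was 0.08, 0.38 and 0.46, then -0.77, 0.35 and 0.44, then -0.22, -0.31 and -0.35. In both branches all 6.5DDC libraries lay below all of 4.5DDC, and 5.5DDC replicate 1 lay below every other library. The regulators, at 0.10, 0.40 and -0.18, then 0.07, 0.42 and 0.36, then -0.23, -0.50 and -0.38, were below their 5.5DDC companions in that library but above all 6.5DDC libraries. Within a branch the genes spread widely: from -1.71 (Mvk) to 0.38 (Ggps1) among sterol genes and from -1.63 (Scd1) to 0.08 (Acss2) among fatty acid genes.

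**Figure D4:**
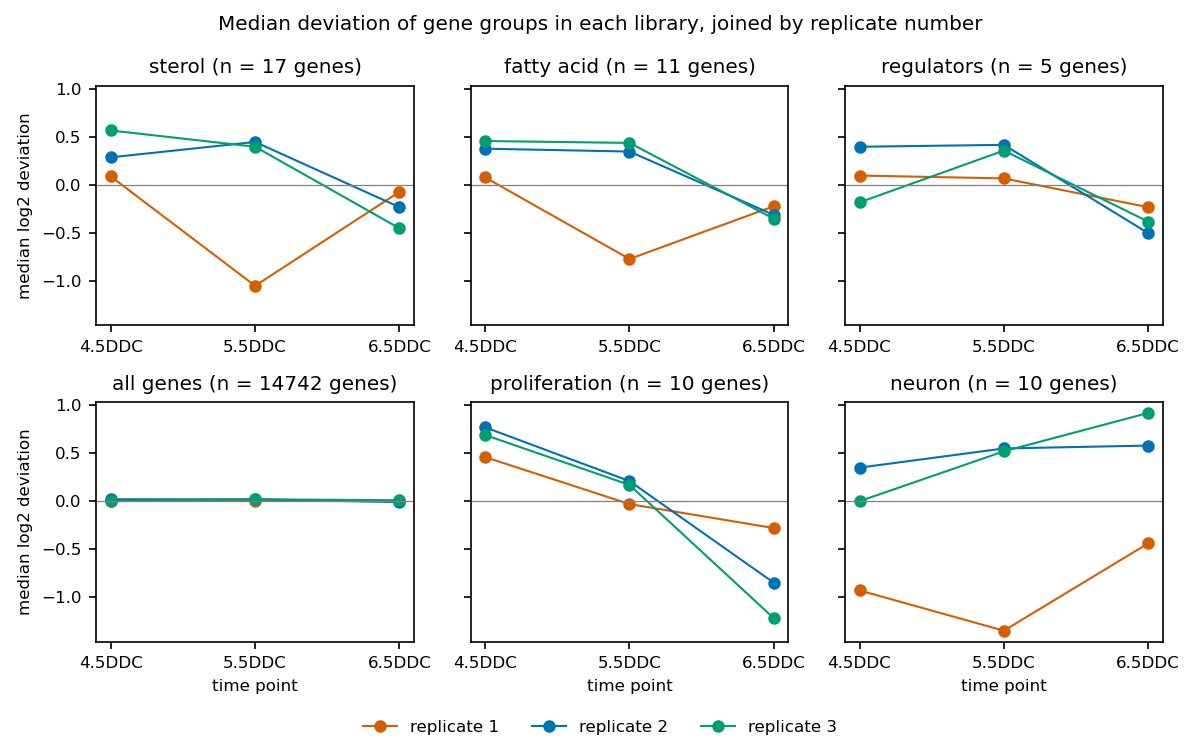
Median deviation of log2 CPM from each gene's mean in the 9 libraries, by time point in DDC, for the sterol branch, the fatty acid branch, the regulators, all genes, proliferation markers and neuron markers, with lines joining equal replicate numbers. Both branches drop to -1.05 and -0.77 in 5.5DDC replicate 1, where the median of the regulators is 0.07 and that of all genes 0.00. Singly, Insig1 (-1.01) and Stard4 (-0.72) were low there, while Srebf1, Srebf2 and Scap were at 0.07 to 0.47.

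From 4.5DDC to 5.5DDC the direction of many estimates depended on 5.5DDC replicate 1. With all libraries, 26 of 33 estimates were lower, against 49.0% of all genes, and the medians were -0.21 for the sterol and -0.26 for the fatty acid branch. Without that library 10 of 33 were lower and 23 higher, 13 of them sterol genes, where 52.1% of all genes were lower, and the medians were 0.11 and 0.14. Within replicates 1, 2 and 3, the sterol medians were -1.09, 0.14 and 0.00 and the fatty acid medians -0.80, 0.05 and 0.05. No member was called by edgeR (0 of 33, with 0.0746% of all genes called), 0 had an unadjusted p under 0.05, where 2275 of all 14742 genes did, and DESeq2 called 0 (3.34% of all genes). Without 5.5DDC replicate 1 the count was again 0 in edgeR, with 0.101% of all genes called, and 3 members and 1556 of 14894 genes at an unadjusted p under 0.05. With replicates 2 and 3 alone it was 0 in edgeR against 3.31% of all genes, with 6 members and 3064 of 14638 genes at an unadjusted p under 0.05. In FPKM, Me1 alone had all 5.5DDC libraries below all 4.5DDC ones, a pattern found in 11.7% of all genes: it went from 11, 12.5 and 12.7 to 4.64, 8.09 and 8.27.

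From 5.5DDC to 6.5DDC nearly every member had a lower estimate, and the size of the difference depended on 5.5DDC replicate 1. The estimates were lower for 32 of 33 members, Ggps1 being the exception, and for 48.1% of all genes, with medians of -0.30 for the sterol branch, -0.28 for the fatty acid branch and -0.53 for the regulators, against 0.02 for all genes. Without that library the medians were -0.63, -0.60 and -0.60. Within replicate 1 the sterol and fatty acid medians were positive, 0.73 and 0.70, and within replicates 2 and 3 they were -0.63 and -0.88 for sterol genes and -0.68 and -0.78 for fatty acid genes. The lowest estimates with all libraries were those of Mvk and Scd1, both -1.32, and of Fasn, -1.09.

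edgeR called 0 of 33 members in this interval (0.224% of all genes), with 8 members and 2733 of 14742 genes at an unadjusted p under 0.05. DESeq2 called 3, Srebf2, Mvk and Fasn, all lower, where it called 2.6% of all genes lower. Without 5.5DDC replicate 1, edgeR called Lss, which fell by 1.28 on the log2 scale, and Scd1, which fell by 1.77, with an adjusted p of 0.0411 each and 0.0269% of all genes called lower. In that fit 25 members and 2156 of 14894 genes had an unadjusted p under 0.05. Lss and Scd1 were each lower in all 3 libraries of 6.5DDC than in both remaining libraries of 5.5DDC. With replicates 2 and 3 alone it called 12 members lower, against 2.51% of all genes. In FPKM, Srebf2, Scap, Mvk and Fasn had all 6.5DDC libraries below all 5.5DDC ones (13.9% of all genes), and Ggps1 had them above (10.1% of all genes).

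The difference between the intervals was tested as well, and no member was called by edgeR (0 of 33, and 0.0% of all 14742 genes). Srebf2 was the 1 member with an unadjusted p under 0.05 (0.0212, adjusted 0.76), among 701 genes in all, and DESeq2 called 0 members. Without 5.5DDC replicate 1 the count was again 0 in edgeR, with 13 members and 380 of 14894 genes at an unadjusted p under 0.05. These comparisons share libraries, so their values are not independent of each other.

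On GRCm38 with GENCODE M21, the genes called lie apart on the genome. Mvk (ENSMUSG00000041939.14) is at chr5:114444269-114460591 on the plus strand, and Fasn (ENSMUSG00000025153.9) at chr11:120805846-120824547 on the minus strand. Tm7sf2 (ENSMUSG00000024799.16) is at chr19:6062821-6068373 and Scd1 (ENSMUSG00000037071.3) at chr19:44394455-44407879, both on the minus strand. Scd2 lies beside Scd1, at chr19:44293674-44306864 on the plus strand. The strand setting and annotation release behind the counts were not stated, so reads of overlapping genes cannot be assigned: 12.1% of the exonic bases of Hmgcs1 overlap Gm48342 and 18.3% of those of Fdft1 overlap Ctsb on the opposite strand, and 26.7% of those of Fdps overlap Gm43738 on the same strand.

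Genes around the pathway were taken from 8 further lists, each compared from 4.5DDC to 6.5DDC by the same edgeR test with all 9 libraries. Their counts stand beside 9.21% of all genes called higher and 9.53% called lower, and no list was compared with another by a test. Of 12 further SREBP pathway regulators, 2 rose and 1 fell, 6 had lower estimates, and the median was 0.00. Insig2, the relative of Insig1, rose from 20.3 ± 7.27 to 33.4 ± 2.35 FPKM (log2 fold change 0.78, SE 0.16, adjusted p 0.0107), and Erlin2, which helps degrade sterol-sensing proteins, by 0.82 to 62.0 ± 2.64 FPKM (SE 0.16, adjusted p 0.00932). For both, all 3 libraries of 6.5DDC lay above all 3 of 4.5DDC. Tmem97 fell from 29.1 ± 3.82 to 14.0 ± 4.84 FPKM (-1.07, SE 0.32, adjusted p 0.0456), in 3 of 3 libraries, and had an adjusted p of 0.158 without 6.5DDC replicate 2.

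Of 10 sterol efflux and LXR genes 3 rose and 0 fell, 4 had lower estimates, and the median was 0.13, with 4 at an unadjusted p under 0.05 and 3 rising by DESeq2. Abca1, the cholesterol exporter, rose from 2.31 ± 1.11 to 5.85 ± 0.758 FPKM (1.46, SE 0.22, adjusted p 0.00369, with 3 of 3 libraries above). Its partner Abcg1 rose by 1.12 (SE 0.29) and Mylip, which marks lipoprotein receptors for degradation, by 0.99 (SE 0.25). Adjusted p-values were 0.0261 and 0.0252, each with 3 of 3 libraries above, and 0.0743 at most for Abcg1 and 0.0901 for Mylip over the alternatives. Of 15 genes of lipoprotein uptake and sterol trafficking, Osbpl2 (0.49) and Npc2 (0.42) rose and Scarb1 (-0.69) fell. The median was 0.25, and 6 of the 15 had an unadjusted p under 0.05. Without 5.5DDC replicate 1 edgeR called 3 higher and 1 lower, and DESeq2 called 5 higher and 1 lower with all libraries. Adjusted p-values of Osbpl2, Npc2 and Scarb1 were 0.0237, 0.0255 and 0.0427. Libraries did not overlap for Osbpl2 and Npc2 and overlapped for Scarb1. Each of these 3 calls was lost in some alternatives, with adjusted p-values up to 0.0787, 0.0899 and 0.144. Of 7 tested genes for sterol esters and oxysterols, edgeR called 0, DESeq2 called 1, and 1 had an unadjusted p under 0.05. Of 11 genes that use isoprenoids for prenylation, dolichol or quinones, Fntb fell from 20.0 ± 1.37 to 14.5 ± 1.68 FPKM (-0.61, SE 0.15, adjusted p 0.0215, 3 of 3 libraries below, and 0.117 with log2(FPKM + 1)). Without 5.5DDC replicate 1, 2 of these 11 were called lower.

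On the fatty acid side, some genes of breakdown rose. Of 20 further fatty acid synthesis genes edgeR called 0, with 4 at an unadjusted p under 0.05, DESeq2 called 3 higher, and the median was 0.20. Without 5.5DDC replicate 1 edgeR called 3 of these 20 higher. Of 18 tested genes of fatty acid oxidation 6 rose and 0 fell, 5 had lower estimates, and the median was 0.49. The counts were the same without 5.5DDC replicate 1 and by DESeq2. Cpt1a, which admits fatty acids to mitochondria, rose from 0.437 ± 0.182 to 5.13 ± 2.87 FPKM (3.54, SE 0.50, adjusted p 0.00256). Acadm, a dehydrogenase for medium chains, rose from 30.6 ± 2.27 to 60 ± 9.49 FPKM (1.08, SE 0.17, adjusted p 0.00407). Slc25a20, the carnitine carrier, rose by 0.77 (SE 0.16, adjusted p 0.0103). All 3 were higher in 3 of 3 libraries and called in 19 of 19 alternatives.

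Of 20 genes of glycerolipid synthesis 4 rose and 1 fell, with a median of -0.02. Gpat3, measured under its older symbol Agpat9, rose by 1.66 (SE 0.29, adjusted p 0.00623), Pcyt1b by 1.52 (SE 0.21, 0.00239), Lpin1 by 1.06 (SE 0.20, 0.00792) and Chpt1 by 0.83 (SE 0.21, 0.0228), each in 3 of 3 libraries. Pcyt1b, which makes the choline carrier of phosphatidylcholine, went from 10.8 ± 1.8 to 29.2 ± 0.372 FPKM. Without 5.5DDC replicate 1 the counts were 4 and 2. In the single-day intervals edgeR called 0 genes of these 8 lists, with 0 to 6 genes per list at an unadjusted p under 0.05 and 0 to 3 called per list by DESeq2. With the replicate number as a block, edgeR called 1 oxidation gene, Cpt1a, which rose from 4.5DDC to 5.5DDC by 2.55 (SE 0.39, adjusted p 0.0221, higher in 3 of 3 replicate numbers).

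**Figure D5:**
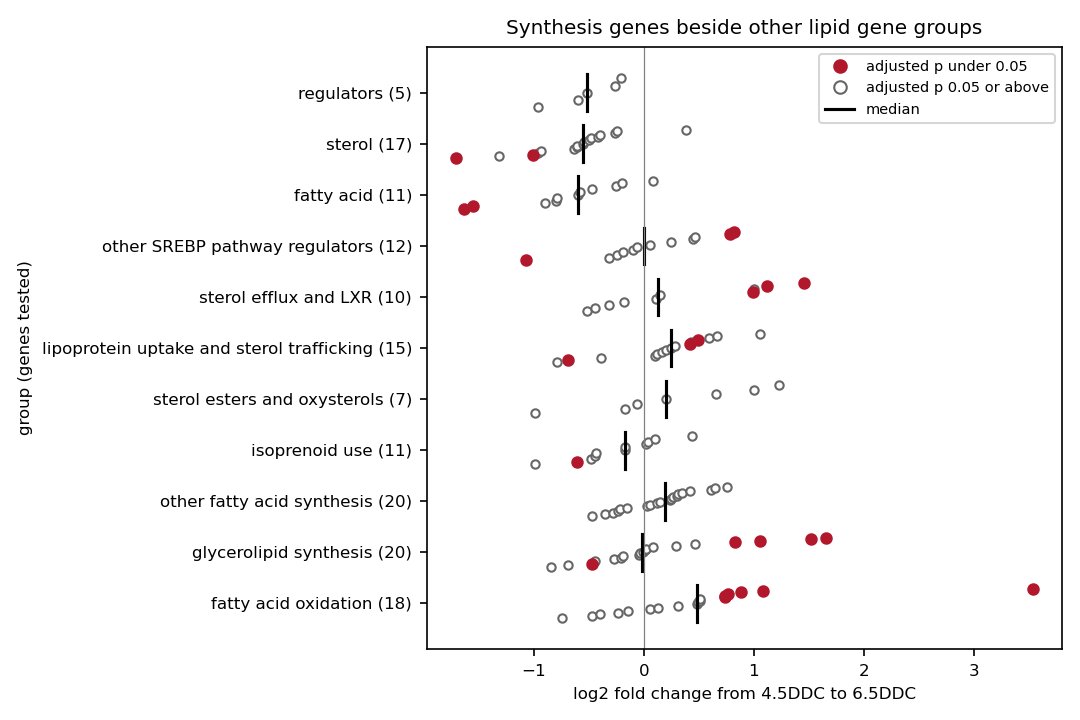
Log2 fold change from 4.5DDC to 6.5DDC of each tested gene in the members' branches and in 8 further lipid lists, red where the adjusted p was under 0.05, with a black bar at each median. The medians are -0.55 for the sterol and -0.60 for the fatty acid branch, and 0.49 for fatty acid oxidation, where Cpt1a lies highest at 3.54.

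Other cell markers moved over the same days, and their part in the results was not tested. All 10 proliferation markers fell from 4.5DDC to 6.5DDC, with a median of -1.29, among them Mcm5 (-2.10), Pcna (-1.72), Aurkb (-1.68) and Mcm2 (-1.37). The adjusted p-values of these 4 were 0.00151, 0.00238, 0.0011 and 0.00443, with 3 of 3 libraries lower. Their summed level was 1210, 1490 and 1490 FPKM at 4.5DDC, 854, 1060 and 1060 at 5.5DDC and 766, 589 and 408 at 6.5DDC. Top2a, the most abundant, ranged from 93.7 to 350 FPKM. The median difference of 5.5DDC replicate 1 from its companions was -0.23 for proliferation markers, -1.51 for sterol genes and -1.02 for fatty acid genes. For neuron markers it was -1.96, for markers of mesenchyme and neural crest -1.76 and for endoderm markers 0.66.

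Neuron markers summed to 243, 578 and 404 FPKM at 4.5DDC, 202, 651 and 675 at 5.5DDC and 351, 785 and 803 at 6.5DDC. Of the 10 tested, Map2 rose (1.65, adjusted p 0.00768) and Isl1 fell (-2.44, adjusted p 0.00173), each in 3 of 3 libraries, and Tubb3 was not analysed here. Replicate 1 was the lowest library of its time point in neuron markers on each day, and in the sterol median it was lowest at 4.5DDC and 5.5DDC but highest at 6.5DDC. Summed glia markers were 172, 472 and 529, then 304, 674 and 687, then 728, 984 and 816 FPKM. Aldh1l1 (2.06), Slc1a3 (1.74) and Aqp4 (1.53) rose, with adjusted p-values of 0.0046, 0.00102 and 0.0385 and 3 of 3 libraries higher, and without 5.5DDC replicate 1 the count was 4 of 7. Olig2 was the 1 tested glia marker with a lower estimate, at 5.00 ± 4.73 and 0.673 ± 0.704 FPKM (log2 fold change -2.89, adjusted p 0.115, lower in 3 of 3 replicate numbers), and all 7 had an unadjusted p under 0.05. The most abundant glia marker, Fabp7, ranged from 142 to 911 FPKM, while Gfap, S100b, Sox10 and Cspg4 were below 1 in all libraries.

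Mesenchyme and neural crest markers summed to 12.5, 24.3 and 32.6, then 20.0, 49.6 and 49.0, then 32.5, 103 and 121 FPKM. All 8 tested had higher estimates at 6.5DDC, with a median of 1.60 and 5 at an unadjusted p under 0.05. edgeR called 1, Twist1, which rose by 0.74 (adjusted p 0.0276, 3 of 3 libraries), and DESeq2 called 2, as did edgeR without 5.5DDC replicate 1. Dcn was the most abundant at 4.91 to 63.8 FPKM, and Prrx1, Foxd3 and Tfap2a were below 1. Endoderm markers summed to 47.7, 25.5 and 25.0, then 45.7, 35.5 and 37.9, then 69.3, 36.8 and 35.7 FPKM, highest in replicate 1 of each day. Of the 6 tested edgeR called 0, DESeq2 called 0 and 0 had an unadjusted p under 0.05. Foxa1 made up most of the sum in every library, at 19.3 to 50.6 FPKM, so the sums mainly give the level of this gene. Sox17, Afp and Apob were below 1. Pluripotency markers summed to between 2.44 and 6.49 FPKM, most of it Klf4, at 1.57 to 4.21. Of the 2 tested, edgeR called 0, DESeq2 called 0, and 0 had an unadjusted p under 0.05. Among progenitor markers, besides Prom1 (1.19, adjusted p 0.00363), Sox3 (-1.80, adjusted p 0.033) and Nkx6-1 (-1.14, adjusted p 0.022) fell, each in 3 of 3 libraries. Their summed level was 2120, 2210 and 1660, then 2900, 2180 and 2420, then 2390, 2020 and 2370 FPKM.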

How the data were processed

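RNA of 9 libraries (3 time points, 3 replicates) was read single-end by the authors, who aligned reads to GRCm38 with TopHat 2.0.4. The deposited expected counts come from htseq-count 0.6.1 per symbol, and the 98 of 38197 symbols whose counts were not whole were rounded. The authors' FPKM values come from Cufflinks 2.1.1. The deposited log2 values were used only as a check: they equal log2 CPM (counts relative to each library's total) of the same table within 5e-14. Strand setting and annotation release were not stated.

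Counts were fitted with edgeR 4.0.16 in R 4.3.3 (filterByExpr, TMM factors 0.951 to 1.03, all 9 libraries, time point as the factor, 6 residual degrees of freedom, common dispersion 0.0733), and p-values were adjusted by Benjamini-Hochberg over 14742 genes. Alternatives used limma 3.58.1 and DESeq2 1.42.0, other scalings, filters and units, fewer libraries and a block for replicate number. Tables and permutations used scipy 1.17.1, numpy 2.4.6 and pandas 2.3.3 under Python 3.11.15, and figures matplotlib 3.10.9. Totals of 11066572 to 25506192 counts put 3 counts at 0.118 to 0.271 CPM (counting error only). The calling was tested on simulated data for 4.5DDC to 6.5DDC. Of 200 genes with a simulated log2 change of 1, 41 (20.5%) were called, with 3 false calls. Of 200 with a change of 2, 164 (82%) were called, with 4 false calls.

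Whether the replicate number pairs libraries was checked by correlating deviations from the time point means across genes, which are not independent replicates. Equal numbers gave 0.743, 0.386 and 0.452 between 4.5DDC and 5.5DDC, and 0.454, 0.367 and 0.197 between 5.5DDC and 6.5DDC. Replicate 2 with replicate 3 of the next day gave 0.291 and 0.225 in these intervals, and replicate 3 with replicate 2 gave 0.39 and 0.405. Replicate 1 with another number gave -0.653 to -0.245. The number thus set replicate 1 apart but did not clearly tell replicates 2 and 3 from each other. With the number as a block, 0 members were called in both intervals, against 1.44% of all genes in the first and 1.32% in the second.

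Members and lists were chosen with earlier results of these data known. Values in every library are given for the regulators, for Hmgcs1, Sqle, Fdft1, Lss, Dhcr7, Acaca, Fasn and Acly, for the desaturases, for members called in any pair and for the 5 members with the largest change. From each further list at most 4 called genes are named by size, with the most abundant gene of each marker list; 1 gene that this rule names is not reported here. The lists covered further SREBP regulators, sterol efflux and LXR, lipoprotein uptake and sterol trafficking, sterol esters and oxysterols, isoprenoid use, further fatty acid synthesis, glycerolipid synthesis, fatty acid oxidation, and markers of progenitors, neurons, glia, endoderm, mesenchyme and neural crest, pluripotent cells and proliferation. Promoters came from RefSeq (GRCm38.p6) and gene positions from GENCODE M21.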

Additional observations from a re-analysis of the deposited data

How the results depend on the processing

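The medians of both branches were negative from 4.5DDC to 6.5DDC in all 19 alternatives, from -0.70 to -0.40 for sterol and from -0.78 to -0.50 for fatty acid genes. From 4.5DDC to 5.5DDC they ran from -0.46 to 0.11 and from -0.40 to 0.14, and from 5.5DDC to 6.5DDC from -0.63 to -0.10 and from -0.60 to -0.08. The number of members called from 4.5DDC to 6.5DDC, 4 as reported, was 8 with DESeq2, 2 with limma voom without normalization and 2 with limma on log2(FPKM + 1) or log2(FPKM + 0.1). It was 9 with only the 6 libraries of the pair (887 of 14415 genes called lower), 7 with a replicate block (1505 of 14742), 24 with replicates 2 and 3 only (chosen after seeing the data), and 1 to 16 leaving out 1 library. For the limma fits and for leaving out any library but 5.5DDC replicate 1, the share of all genes called is not given. For this pair the replicate number set replicate 1 apart but did not pair replicates 2 and 3. Equal numbers correlated across genes by 0.383, -0.0396 and -0.215, so the block is given here alone. Its 7 members were Mvk, Idi1, Lss, Tm7sf2, Acly, Fasn and Scd1, and the branch medians were -0.53 and -0.57. Among marker lists the block called 3 endoderm genes higher (0 as reported), 5 mesenchyme and neural crest genes higher (1), 3 neuron genes higher (1), and 6 glia genes higher and 1 lower (3 and 0), where it called 1913 of 14742 genes higher. Among lipid lists the block called 0 further SREBP regulators lower (1 as reported, Tmem97). It called 5 genes of lipoprotein uptake and sterol trafficking higher and 2 lower (2 and 1). Of sterol esters and oxysterols it called 2 higher (0), and of further fatty acid synthesis 2 higher (0). The remaining lipid lists kept their counts. From 5.5DDC to 6.5DDC the count of 0 became 3 with DESeq2, 0 to 2 leaving out 1 library and 12 with replicates 2 and 3 only. Members without overlap of FPKM from 4.5DDC to 6.5DDC, 19 as reported, numbered 19 to 28 leaving out 1 library, where smaller groups overlap less. No alternative called a member from 4.5DDC to 5.5DDC or for the difference between the intervals. For single members from 4.5DDC to 6.5DDC, the values counted here include replicates 2 and 3 only beside the 19 alternatives. Of these values 586 kept direction and side of the threshold, 49 passed it newly, 24 no longer passed, and 1 reversed. The reversal was Acss2, at -0.03 without 4.5DDC replicate 2 (to 0.15 leaving out others). Of the 49, 20 came from replicates 2 and 3 only and 12 from leaving out 5.5DDC replicate 1. Apart from the settings with fewer libraries, the cause was not tested. Idi1 had the fewest counts per library of the members, 45 to 200, and what depth alone limits was not tested.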
